A study of Mus musculus with 16 samples.

Results

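Meg3, Rian, Mirg, Malat1, Neat1, Miat and Snhg11 are 7 long noncoding RNAs (lncRNAs) that are known as abundant nuclear transcripts of the brain. They were selected by name from the 55335 genes of the deposited count table, and all 7 passed the filter on low counts, as did 16475 genes in all. The counts come from hippocampi of 16 female mice, 4 in each of 4 groups, taken at 10 months of age. Every mouse had a cannula in the lateral ventricle and a pump that ran for 28 days. WT mice (C57BL/6J x 129S1) received vehicle (WT-D) or an inhibitor of stearoyl-CoA desaturase (WT-S), and 3xTg mice received vehicle (3xTg-D) or the inhibitor (3xTg-S). The 3xTg strain models Alzheimer's disease and carries, among its alleles, transgenes for mutant human APP and tau, which a Thy1.2 promoter drives in neurons. The inhibitor was used at 80 µM and the vehicle was 0.8% DMSO in artificial cerebrospinal fluid. The treatment labels name the agent as Cayman 10566, although the protocol in the labels gives ab142089 for every mouse.

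Long noncoding RNAs of this kind stay in the nucleus after transcription. Malat1 accumulates in nuclear speckles, where splicing factors gather, and Neat1 is the scaffold of paraspeckles. Meg3, Rian and Mirg are transcribed in the same direction from the maternal copy of the Dlk1-Dio3 imprinted domain and host small RNAs. Miat, also called Gomafu, forms its own nuclear foci in neurons, and Snhg11 hosts a small nucleolar RNA and is expressed in neurons. Nuclear and cytoplasmic RNA were not separated in these samples, so the location of the transcripts is background and was not measured.

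The positions below are on GRCm38 as the table gives them. Meg3 lies at chr12:109541001-109571726, Rian at chr12:109603808-109661716 and Mirg at chr12:109729764-109749460, all on the plus strand. Malat1 at chr19:5795690-5802672 and Neat1 at chr19:5824708-5845478 are neighbours on the minus strand. Miat is at chr5:112213228-112229395 on the minus strand and Snhg11 at chr2:158375638-158386145 on the plus strand. The table gives Snhg11 the categories protein_coding, nonsense_mediated_decay and retained_intron, and gives the other 6 genes the category lncRNA. RefSeq places 1 microRNA hairpin inside Meg3, 3 inside Rian and 14 inside Mirg on the same strand, and none inside the other 4 genes.

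Stretches of 3 transcripts are shown because they carry the features by which these RNAs are known, with the sequences taken from Gencode M21 on GRCm38. Near their 3' ends Malat1 and the long form of Neat1 hold U-rich and A-rich tracts, which are known to fold into a triple helix that protects an end without a poly(A) tail. Miat holds repeats of ACTAAC, which resemble the branch point of introns and are known to bind splicing factor 1. Capitals mark the 3 runs of at least 11 bases that the last 100 bases of Neat1-201 share with Malat1-201, and the repeat ACTAAC in Miat, all searched on the transcribed strand. The stretches are chr19:5795973-5796077 for Malat1-201, chr19:5824708-5824807 for Neat1-201 and chr5:112217311-112217455 for Miat-205, all written from the minus strand.
Malat1-201: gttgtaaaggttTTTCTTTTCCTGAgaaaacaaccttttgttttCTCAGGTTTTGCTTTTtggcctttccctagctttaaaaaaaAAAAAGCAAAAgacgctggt
Neat1-201: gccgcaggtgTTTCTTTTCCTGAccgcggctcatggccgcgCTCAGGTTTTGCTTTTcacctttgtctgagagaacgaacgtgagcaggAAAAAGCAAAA
Miat-205: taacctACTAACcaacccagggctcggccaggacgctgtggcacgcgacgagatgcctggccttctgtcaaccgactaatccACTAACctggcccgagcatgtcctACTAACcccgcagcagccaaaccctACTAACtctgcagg
Among 141767 annotated transcripts, Malat1-201 and Neat1-201 were the 2 that held the 3 runs in this order within 150 bases. Miat-205 held 11 ACTAAC repeats in 9163 bases, or 1.20 per kb. Of 7040 transcripts of at least 5000 bases, 3 (0.0426%) had repeats at this density or above, Miat-205 included.

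The promoter windows of Meg3 and Rian are shown because both genes lie in the same imprinted domain but differed in how much they varied between mice. Each holds 300 bases around the RefSeq start on GRCm38.p6, most of them upstream, on the plus strand, at chr12:109540746-109541045 for Meg3 and chr12:109603695-109603994 for Rian. Capitals mark TGACG, the core of the cyclic AMP response element, the TATA box TATAAA and the CCAAT box, searched on both strands.
Meg3 promoter: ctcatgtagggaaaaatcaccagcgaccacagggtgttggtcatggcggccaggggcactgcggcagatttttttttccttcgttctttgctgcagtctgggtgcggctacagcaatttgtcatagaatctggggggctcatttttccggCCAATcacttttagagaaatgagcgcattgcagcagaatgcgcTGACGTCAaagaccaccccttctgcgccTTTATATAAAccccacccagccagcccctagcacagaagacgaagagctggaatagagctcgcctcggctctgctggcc
Rian promoter: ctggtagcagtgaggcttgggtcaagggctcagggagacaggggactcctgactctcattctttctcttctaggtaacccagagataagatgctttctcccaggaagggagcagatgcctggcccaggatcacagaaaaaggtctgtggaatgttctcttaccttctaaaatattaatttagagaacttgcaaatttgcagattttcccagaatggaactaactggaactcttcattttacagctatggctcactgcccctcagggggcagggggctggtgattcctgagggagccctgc
The Meg3 window shown held 2 matches of TGACG, 1 on each strand and overlapping, 2 overlapping matches of TATAAA and 1 of CCAAT, and the Rian window held none of these. A second RefSeq window of Meg3, at chr12:109545148-109545447, likewise held none. TGACG was present in 20.8% of 32851 promoter windows, TATAAA in 13.6% and CCAAT in 37.4%. The Malat1 window held 3 matches of TGACG and the Mirg window 1 of CCAAT. The windows of Miat and Snhg11, which varied widely between mice, held no match of any of these motifs. A relation of the motifs to the variation between mice was not tested. RefSeq windows matched 6 of the 7 genes, without Neat1, and a match is a description of letters and not a site shown to be used.

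The label of abundant transcripts held for some of the 7 genes. Levels are given as CPM, the counts scaled to the reads on genes of each mouse by TMM. Meg3 had a mean of 1691 CPM over the 16 mice and was rank 30 of 16475 genes, Malat1 had 1465 CPM at rank 36 and Snhg11 had 1052 CPM at rank 66. Rian had 492 CPM at rank 233 and Miat 212 CPM at rank 877. Neat1, at 70.7 CPM, was rank 3275, and Mirg, at 11.9 CPM, was rank 9348 and thus in the lower part of the tested genes. Levels divided by exon length (RPKM) gave another order. Malat1 then led with 209.7 RPKM, followed by Snhg11 with 123, Meg3 with 93.5, Rian with 27.0, Miat with 22.8, Neat1 with 3.41 and Mirg with 1.64. The exon length used for Neat1 was 20771 bases, that of its long form. The libraries were made with an mRNA kit, and how fully RNAs without a poly(A) tail were captured was not tested. Together the 7 genes took between 0.161% and 0.941% of the reads on genes of a mouse.

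Meg3, a maternally expressed RNA of the Dlk1-Dio3 domain, differed more between mice of a group than between groups. In WT-D mice Meg3 was at 1244, 1542, 1737 and 2506 CPM in replicates 1 to 4. In WT-S mice it was at 1237, 564, 912 and 2945 CPM. In 3xTg-D mice it was at 1654, 559, 1178 and 1985 CPM, and in 3xTg-S mice at 2314, 407, 2572 and 3704 CPM. All 4 groups overlapped, and the lowest and the highest mouse, replicates 2 and 4 of 3xTg-S, belonged to the same group and stood 9.10-fold apart. Replicate 2 was the lowest mouse in 3 groups and replicate 4 the highest in all 4.

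Malat1, the speckle RNA, followed the same mice. Its level was 1404, 1346, 1685 and 2061 CPM in WT-D replicates 1 to 4 and 1314, 534, 915 and 2389 CPM in WT-S mice. In 3xTg-D mice it was 1740, 652, 1008 and 1525 CPM, and in 3xTg-S mice 1865, 467, 1885 and 2644 CPM. The highest mouse had 5.66 times the level of the lowest, and these were the same mice as for Meg3.

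Snhg11, Miat and Mirg spread as widely. Snhg11 ranged from 364 to 2000.3 CPM (5.49-fold), Miat from 69.9 to 397 CPM (5.68-fold) and Mirg, which hosts a cluster of microRNAs, from 2.91 to 19.7 CPM (6.75-fold). For all 3 genes 3xTg-S replicate 2 was the lowest mouse and 3xTg-S replicate 4 the highest. WT-D mice kept closest together in Mirg, at 12.4, 13.4, 12.4 and 14.3 CPM, while 3xTg-S mice ranged from 2.91 to 19.7 CPM.

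Rian, which hosts small nucleolar RNAs, and Neat1 varied less. Rian was at 468, 511, 536 and 515 CPM in WT-D, 541, 361, 504 and 547 CPM in WT-S, 454, 344, 482 and 543 CPM in 3xTg-D and 565, 346, 550 and 611 CPM in 3xTg-S mice. The highest mouse had 1.78 times the Rian level of the lowest, and replicate 2 was the lowest of 3 groups as for Meg3. Neat1 was at 95.3, 71.3, 58.9 and 112 CPM in WT-D, 63.7, 51.8, 51.1 and 89.3 CPM in WT-S, 79.5, 70.7, 66.5 and 69.4 CPM in 3xTg-D and 70.9, 42.3, 66.3 and 73.4 CPM in 3xTg-S mice. Its fold between the extremes was 2.64, and its highest mouse was WT-D replicate 4.

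**Figure D1:**
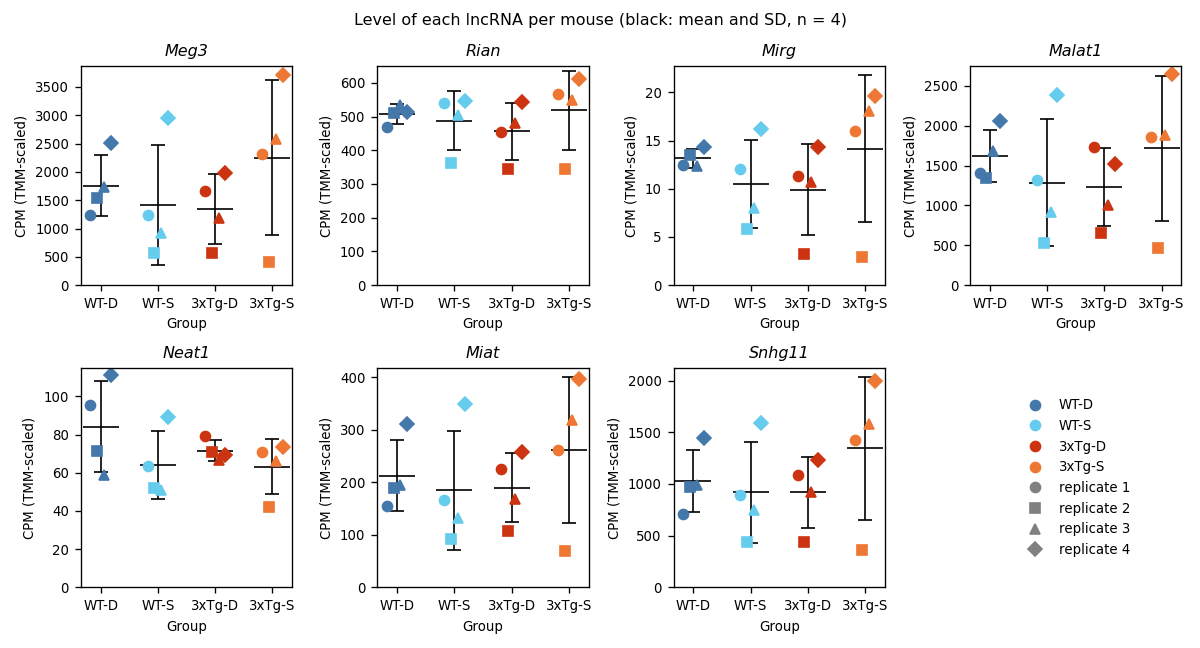
Level of each of the 7 lncRNAs in CPM (vertical axes, from 0) in the 4 groups, 1 point per mouse with the shape giving the replicate number, and black lines for the mean and SD of 4 mice. Groups overlap in every panel, and 3xTg-S mice span the range of Meg3 from 407 to 3704 CPM.

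On the log2 scale the SD within groups was 0.98 for Meg3, 0.87 for Mirg, 0.80 for Malat1, 0.78 for Snhg11 and Miat, 0.34 for Neat1 and 0.28 for Rian. The median over the tested genes was 0.17, smaller than that of any of the 7 lncRNAs. The members rose and fell in the same mice. Over 16 mice the log2 levels of Meg3 and Miat had a Pearson's r of 0.990, those of Meg3 and Snhg11 0.988 and those of Meg3 and Malat1 0.981. Neat1 was the least like the others, with an r between 0.404 for Rian and 0.690 for Malat1. These coefficients come from shared libraries and are given as a description.

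The share of uniquely mapped reads that were assigned to no annotated gene was the measure set against these levels. Reads were assigned by exons, so reads in introns of annotated genes fall in this share too. They are called reads outside genes here, and reads in introns and between genes were not separated. The share was 10.6, 10.5, 11.9 and 12.5% in WT-D replicates 1 to 4 and 10.4, 8.55, 9.93 and 13.1% in WT-S mice. It was 11.3, 8.79, 10.1 and 10.9% in 3xTg-D mice and 12.8, 7.82, 12.01 and 15.1% in 3xTg-S mice. The mouse with the lowest share was the lowest in 6 of the 7 genes, and the mouse with the highest share was the highest in 6. Group means lay between 10.3% ± 1.11 (SD, n = 4) in 3xTg-D and 11.9% ± 3.06 in 3xTg-S mice. None of the 5 comparisons between groups passed the test, with exact two-sided permutation p between 0.2 and 0.743, where 4 mice against 4 allow no p below 0.0286. Each mouse was also left out in turn. Without 3xTg-S replicate 2, the share was 3.04 percentage points higher in 3xTg-S than in 3xTg-D mice (exact permutation p = 0.0286, the smallest possible). That mouse had the lowest share of all, so this p depends on leaving out an extreme value. Without any other mouse of these 2 groups, the exact permutation p was between 0.343 and 0.657.

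With a rising share, the levels of 6 of the 7 lncRNAs rose across the 16 mice. Pearson's r with the share was 0.951 for Meg3, 0.942 for Malat1, 0.937 for Miat, 0.934 for Snhg11, 0.849 for Mirg and 0.840 for Rian, with permutation p adjusted over all tested genes of 0.00026 for the first 5 and 0.000399 for Rian. Of the tested genes 31.3% passed the same test in either direction, so that a call by itself did not set the lncRNAs apart from the background. Neat1 had an r of 0.575 and did not pass (adjusted permutation p = 0.0607), while its Spearman's rho of 0.635 did (0.0369). Spearman's rho was 0.974 for Meg3, 0.988 for Malat1, 0.956 for Miat, 0.944 for Snhg11, 0.921 for Mirg and 0.821 for Rian, and the permutation p of these was between 1e-05, the smallest that the resamples can give, and 0.00017.

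For the 6 lncRNAs that passed, the relation held without the most extreme mice and in each genotype. Without the mice with the 2 shares farthest from the median, r was 0.953 for Meg3, 0.954 for Malat1, 0.928 for Miat, 0.922 for Snhg11, 0.824 for Mirg, 0.779 for Rian and 0.530 for Neat1. Within the 8 WT mice r was 0.974 for Meg3 and 0.960 for Malat1 (exact permutation p = 7.44e-05 and 2.48e-05), and within the 8 3xTg mice it was 0.942 and 0.944 (exact permutation p = 0.000223 and 9.92e-05). Over the 6 genes r was between 0.738 (Rian, exact permutation p = 0.0236) and 0.974 in WT mice and between 0.874 (Mirg, exact permutation p = 0.000818) and 0.944 in 3xTg mice. Neat1 had an r of 0.682 in WT and 0.609 in 3xTg mice (exact permutation p = 0.0643 and 0.132), and these p within genotypes were not adjusted for the number of genes. After centring on the means of the replicate numbers in place of the groups, r fell to 0.870 for Meg3, 0.659 for Rian and 0.236 for Neat1. Replicate numbers held 61.0 to 74.3% of the variance of the lncRNAs within groups, and the sources used here do not say what the numbers stand for. The same value was not computed over all tested genes, so these percentages have no background beside them. Replicate 2 also had the lowest share in each group, so the variance held by the share and by the replicate numbers overlaps.

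**Figure D2:**
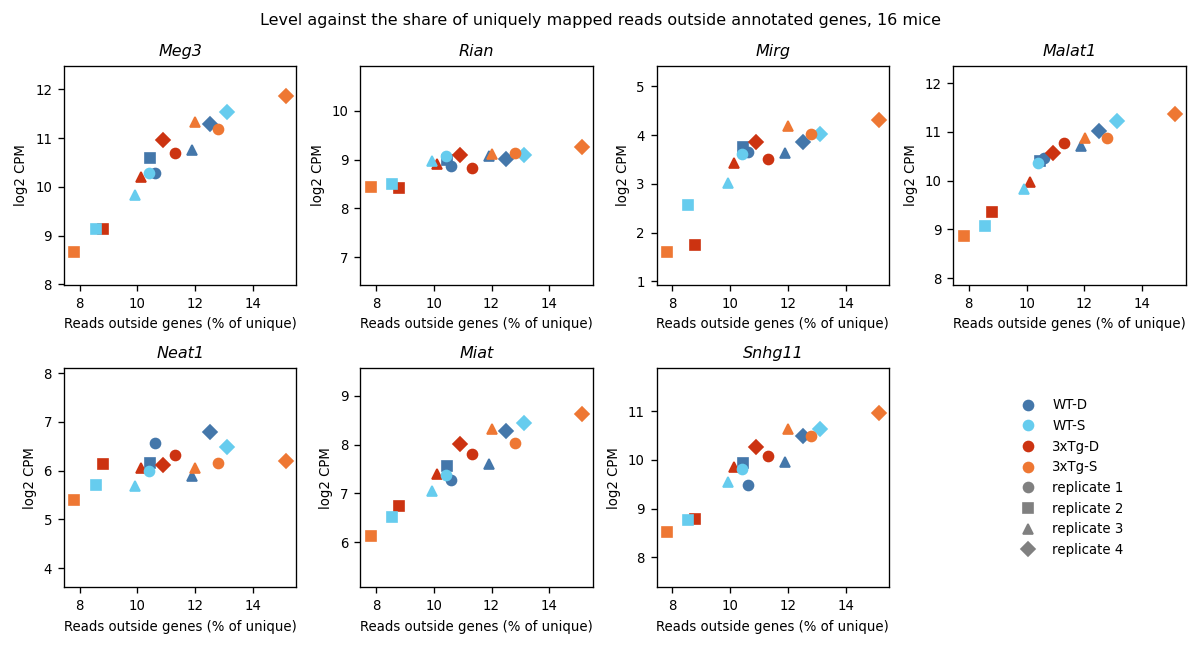
log2 CPM of each lncRNA (vertical axes, all spanning the same number of log2 units) against the share of reads outside genes (horizontal axes). The share is the percent of uniquely mapped reads assigned to no annotated gene. Each point is 1 mouse, coloured by group and shaped by replicate number. Meg3, Malat1, Miat, Snhg11 and Mirg climb steeply with the share, and Rian and Neat1 climb little.

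A fit of the counts on the share, with the 4 groups in the model, gave the size of the relation. All 7 lncRNAs had a positive slope with an adjusted p (Benjamini-Hochberg) of 0.05 or less in edgeR's quasi-likelihood test, where 17.3% of the tested genes did so. Per percentage point of share, Meg3 rose by 0.48 ± 0.04 (SE) on the log2 scale, which is 1.40-fold. Malat1 rose by 0.39 ± 0.03, Miat by 0.38 ± 0.03, Snhg11 by 0.38 ± 0.04 and Mirg by 0.35 ± 0.06. The slopes of Neat1 and Rian were 0.13 ± 0.03 and 0.12 ± 0.02, which is 1.09-fold per point for each. The median slope of all tested genes was 0.00, and 99.8% of genes had a smaller slope than Meg3, 99.3% than Malat1 and 90.3% than Rian. The adjusted p was 2.43e-06 for Meg3 and Malat1, and at most 0.00522, for Neat1, among the others. With the replicate number as a block, 3 lncRNAs (Meg3, Malat1 and Miat) had an adjusted p of 0.05 or less, among 59 genes in all that did. Of these 59 genes 58 rose and 1 fell, against 2843 and 2166 without the block. The calls of other genes and lists below are from the fit without the block. With the share of multimapped reads as a further term, Mirg and Neat1 did not pass (adjusted p = 0.0646 and 0.243).

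Of the variance within groups, the share held 91.7% for Malat1, 91.2% for Meg3, 90.1% for Miat, 87.8% for Snhg11, 73.7% for Mirg, 70.4% for Rian and 51.7% for Neat1, against a median of 21.2% over the tested genes. Other measures of the libraries moved with the share. Its r was -0.780 with the share of multimapped reads, -0.640 with the mitochondrial share of reads on genes and -0.603 with the number of reads on genes, which lay between 15413385 and 23590149 per mouse. With the log2 number of reads on genes as a further term, the slopes of the 7 lncRNAs lay between 0.10 for Rian and 0.40 for Meg3 and all passed. This term and that of the multimapped reads were chosen after the data had been seen. What sets the share itself was not tested.

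The ratio of one lncRNA to another also changed with the share. From the mouse with the lowest to the mouse with the highest share, the log2 ratio of Meg3 to Rian, its neighbour in the domain, went from 0.24 to 2.60, and its r with the share was 0.946 (permutation p = 1e-05, adjusted over 4 ratios 2e-05). The ratio of Malat1 to Neat1, next to each other on chromosome 19, had an r of 0.891 (adjusted permutation p = 2e-05). Meg3 to Malat1 had an r of 0.721 and Meg3 to Mirg 0.601 (adjusted permutation p = 0.002 and 0.0138). Neighbours on a chromosome thus differed in how much they changed with the share. These 4 ratios were chosen after the levels had been seen.

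Between Dlk1 and Dio3, 116 genes are listed in the table, 75 had a count and 7 passed the filter. All 7, with Meg3, Rian and Mirg among them, had a positive slope on the share that passed the test. Of all tested genes, 17.3% did so. Dlk1 and Dio3, protein-coding genes expressed mainly from the paternal copy, had slopes of 0.18 ± 0.06 and 0.20 ± 0.05 at means of 7.70 and 3.21 CPM. Gm37899 and B830012L14Rik, between Rian and Mirg, had slopes of 0.50 ± 0.07 and 0.46 ± 0.08 at 1.56 and 1.26 CPM. Rian thus had the smallest slope of the 7 tested genes of the domain. Begain, the next tested gene before Dlk1, had a slope of -0.03 ± 0.02 that did not pass, and Ppp2r5c, the next after Dio3, fell by 0.04 ± 0.01 per point.

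**Figure D3:**
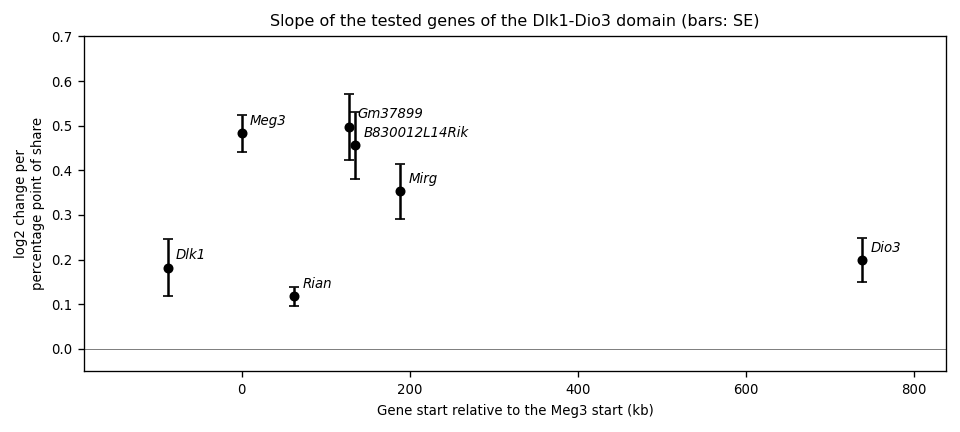
Slope on the share of reads outside genes in log2 units per percentage point (vertical axis, bars give the SE) of the 7 tested genes from Dlk1 to Dio3 against the start of each gene relative to that of Meg3 in kb (horizontal axis). Meg3, Gm37899, B830012L14Rik and Mirg lie between 0.35 and 0.50, and Dlk1, Rian and Dio3 between 0.12 and 0.20.

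Around Malat1 and Neat1 the protein-coding neighbours Frmd8 and Slc25a45 had slopes of -0.05 and -0.02 that did not pass, and Ltbp3 had a slope of 0.13 ± 0.02 that did. Gm37376, which overlaps 6.49% of the Malat1 exon bases on the opposite strand, had a slope of 0.32 ± 0.05, and 6.79% of the Meg3 exon bases are likewise overlapped by another gene. Gm26953 overlaps 24.3% of the Miat exon bases on the opposite strand and had a slope of 0.29 ± 0.05. The strand setting of the counting is not given in the sources used here, so reads of these pairs cannot be told apart. Gm25129, a small nucleolar RNA gene inside the span of Snhg11, had a slope of 0.38 ± 0.08. Beside Snhg11, the host gene Snhg17 had a slope of 0.16 ± 0.03 and Lbp one of -0.05 ± 0.09 that did not pass.

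Genes for proteins of the nuclear bodies these RNAs belong to were set beside them. With the replicate number as a block 58 of the 16475 tested genes rose, and the counts here are from the fit without it. Of 25 genes for nuclear speckle proteins and SR splicing factors, 20 rose and none fell, where 17.3% of all tested genes rose and 13.1% fell, and their median slope was 0.11 against 0.00 over all tested genes. Srrm2 and Son, scaffolds of the speckle, had slopes of 0.25 ± 0.02 and 0.15 ± 0.02, and Sf3b1, a part of the spliceosome, one of 0.11 ± 0.02. Of 20 genes for paraspeckle proteins, 10 rose and none fell, with a median slope of 0.05. Tardbp and Sfpq, which bind RNA, rose by 0.10 ± 0.01 and 0.09 ± 0.01, while Matr3 and Hnrnpk had slopes of -0.03 and -0.02 that did not pass.

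Other lncRNAs were counted in the same way. Of 17 tested genes on a list of other brain or nuclear lncRNAs, 4 rose and none fell, with a median slope of 0.02, where 17.3% of all tested genes rose and 13.1% fell. Xist, which coats the inactive X chromosome, was among them with 0.12 ± 0.02, while 2900097C17Rik, Peg13 and 6330403K07Rik had slopes of 0.00, -0.02 and -0.02 that did not pass. Of 18 other noncoding hosts of small nucleolar RNAs, 6 rose and 2 fell. Snhg14, the host transcript of the Prader-Willi domain, rose by 0.13 ± 0.03, Zfas1 and Snhg8 fell by 0.06 ± 0.02 and 0.08 ± 0.02, and Gas5 had a slope of -0.01 that did not pass. Some genes carry several categories, and the first listed was used to place them. Pnisr, with lncRNA listed before protein_coding, was thus counted as lncRNA. Genes with retained_intron or nonsense_mediated_decay listed first were in neither group. Over the 2246 tested genes placed as lncRNA, 395 rose and 182 fell with a median slope of 0.01. Of 11398 genes placed as protein_coding, 1670 rose and 1715 fell with a median of -0.01.

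Markers of cell types and mitochondrial messenger RNAs were examined beside these slopes. With the replicate number as a block 1 of the 16475 tested genes fell, and the counts here are from the fit without it. Of 8 tested mitochondrial messenger RNAs 5 fell and none rose, with mt-Co1 falling by 0.05 ± 0.02 per point. Of 8 microglia markers 5 fell with a median slope of -0.12, and of 8 oligodendrocyte markers 5 fell with a median of -0.07, where 13.1% of all tested genes fell. Of 8 astrocyte markers 3 fell, of 12 neuron markers 1 rose and 2 fell, and none of 8 endothelial and 4 tested choroid plexus markers passed. Neuron markers, such as Camk2a, Snap25 and Syt1, were present in all mice and summed to 11732 to 14201 CPM over the 16 mice. The part of these cell types in the lncRNA slopes was not tested, and in whole hippocampus fewer cells of a type and less RNA per cell cannot be told apart.

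**Figure D4:**
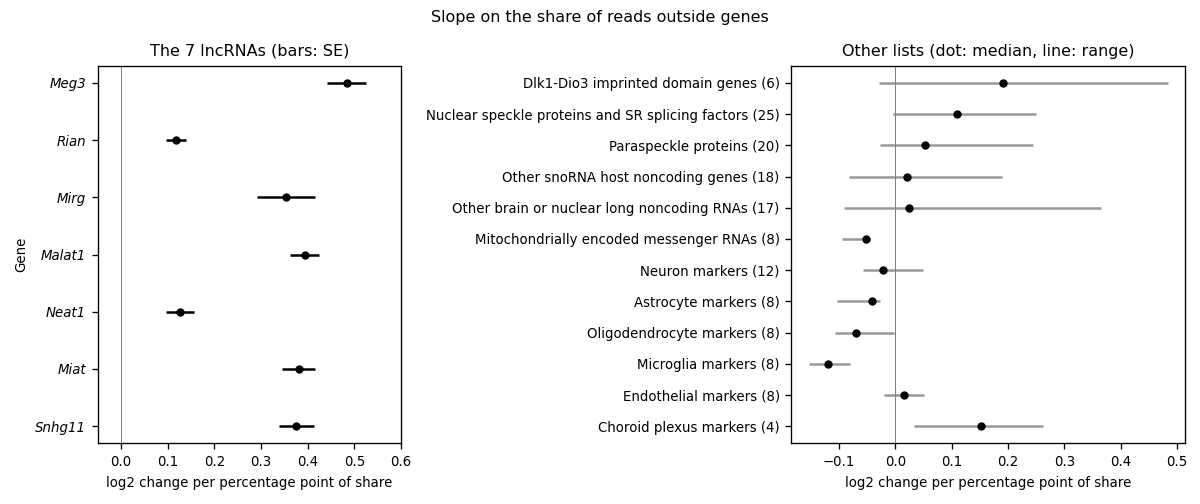
Slope on the share of reads outside genes, in log2 units per percentage point, of the 7 lncRNAs (left, bars give the SE) and of 12 other lists (right, dot for the median, line from the lowest to the highest gene, number of tested genes in brackets; the domain list holds Meg3, Rian and Mirg). Meg3 reaches 0.48, and the median of the speckle list lies at 0.11 and that of the microglia markers at -0.12.

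The genes whose log2 levels over the 16 mice were most like those of each lncRNA were found by Pearson's r. For Meg3 they were Pnisr, a protein of nuclear speckles, Dennd6b and Gm38020 with r of 0.993, 0.993 and 0.991. Pnisr was also second for Malat1 (0.986), between Arntl2 (0.988) and Ankrd16 (0.984). For Miat the most alike gene was Mir124a-1hg, the host of a neuronal microRNA (0.997), followed by Leng8 (0.994) and Dennd6b (0.991). Snhg11 was nearest to Mir124a-1hg (0.989), Meg3 (0.988) and Gm38020 (0.987). Rian and Mirg shared Gm42664 (0.959 and 0.972), and Rian was also near Lrig2 (0.954) and Tasor2 (0.953), and Mirg near Col19a1 (0.976) and Thoc1 (0.969). Neat1 had lower values, with Evc at 0.910, 3110056K07Rik at 0.878 and Sbno2 at 0.877. These points share libraries and depth, and the values are a description.

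Between the groups no lncRNA of the 7 passed the study's threshold of an unadjusted p of 0.01 or less in any of the 5 comparisons. The comparison of WT-D and 3xTg-D asks what the genotype does under vehicle. All 7 fitted log2 differences of 3xTg-D minus WT-D were negative, from -0.15 ± 0.11 (SE) for Rian to -0.42 ± 0.33 for Mirg, and Meg3 was at -0.39 ± 0.33, with adjusted p between 0.577 and 0.865, where 4.91% of the tested genes passed. The 4 tested choroid plexus markers summed to 27.2 to 718 CPM in WT-D and 27.9 to 45.0 CPM in 3xTg-D mice, and 1 of them fell. The direction of Miat and Snhg11 turned without WT-D replicate 4 or without 3xTg-D replicate 2.

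The comparison of 3xTg-D and 3xTg-S asks what the inhibitor does in 3xTg mice. Fitted log2 differences of 3xTg-S minus 3xTg-D were 0.74 ± 0.54 for Meg3, 0.55 ± 0.44 for Snhg11, 0.52 ± 0.52 for Mirg, 0.48 ± 0.44 for Malat1, 0.47 ± 0.43 for Miat, 0.19 ± 0.18 for Rian and -0.18 ± 0.15 for Neat1. The adjusted p were between 0.735 and 0.786, and 0.904% of the tested genes passed. Of 8 oligodendrocyte markers 3 fell in this comparison and 3 rose in that of WT-D and 3xTg-D, and their part in the lncRNA values was not tested. Without 3xTg-S replicate 2, the mouse with the lowest share, Meg3 was higher in 3xTg-S mice by 1.09, which passed the unadjusted threshold as did 4.87% of genes (adjusted p = 0.204). With the share as a covariate, 6 of the 7 values turned negative, Meg3 to -0.27 and Malat1 to -0.30, and Neat1, at -0.38, passed the unadjusted threshold as did 1.1% of genes (adjusted p = 0.762).

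The comparison of WT-D and WT-S asks the same in WT mice. All 7 values were negative, from -0.05 ± 0.12 for Rian to -0.40 ± 0.22 for Neat1 (adjusted p above 0.99), and 0.188% of the tested genes passed. Same-numbered mice of these groups deviated together across genes (mean r of 0.217), as did those of 3xTg-D and 3xTg-S (mean r of 0.213). With the replicate number as a block Neat1 was lower in WT-S mice by a log2 difference of -0.39. This passed the unadjusted threshold as did 0.698% of genes (adjusted p = 0.783). Without WT-S replicate 4, which had the highest share of its group, Meg3 and Malat1 were at -0.95 and -0.81 in WT-S minus WT-D mice, and both passed the unadjusted threshold as did 3.13% of genes (adjusted p = 0.303 and 0.309).

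The comparison of WT-S and 3xTg-S gave 0.66 ± 0.59 for Meg3 and between -0.03 and 0.54 for the others, with adjusted p of 0.73 or more, where 4.26% of genes passed. WT-D and 3xTg-S, the comparison across both factors, gave -0.44 ± 0.21 for Neat1 (adjusted p = 0.423) and between 0.01 and 0.37 for the others, where 5.69% of genes passed. Without 3xTg-S replicate 2, Mirg and Snhg11 were higher in 3xTg-S than in WT-D mice by 0.43 and 0.69, and both passed the unadjusted threshold as did 9.38% of genes (adjusted p = 0.0386 and 0.0844). With the share as a covariate none of the 7 passed in either comparison, where 5.98% and 8.37% of genes did, and Neat1 was at -0.22 and -0.53 (adjusted p = 0.297 and 0.127). The 5 comparisons share groups, so their values are not independent of each other.

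The interaction of genotype and treatment was tested in all 16 mice. Its fitted values were positive for all 7 genes, from 0.22 ± 0.29 for Neat1 to 1.06 ± 0.78 for Meg3, with adjusted p of 0.788 or more, where 0.595% of genes passed. With the share as a covariate all 7 values were negative, between -0.30 for Miat and -0.07 for Rian.

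**Figure D5:**
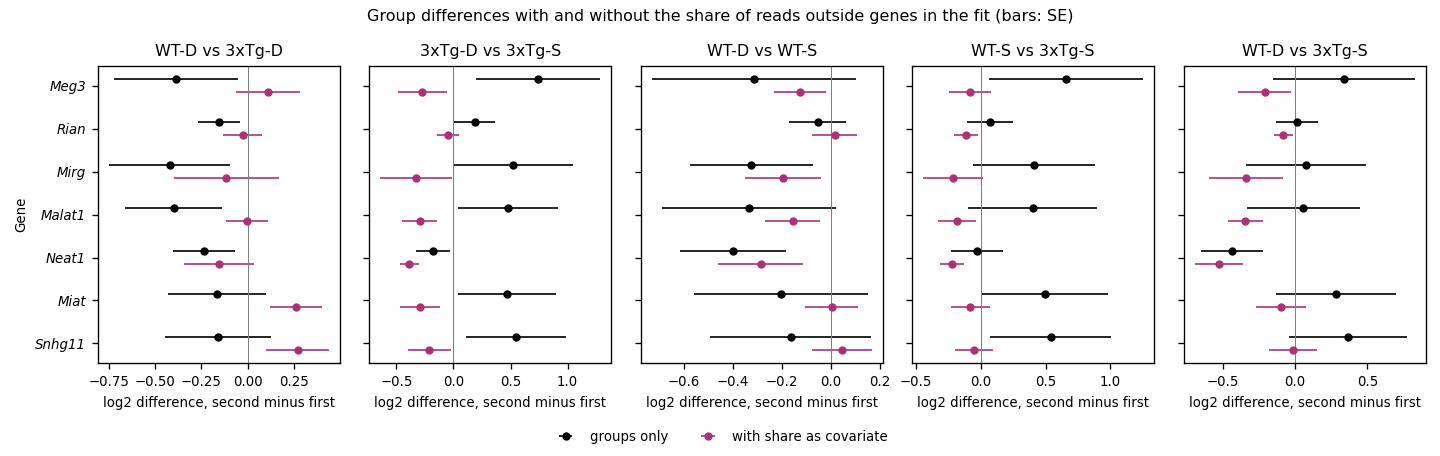
log2 difference of the second minus the first group (horizontal axes, differing between panels) for each lncRNA in the 5 comparisons, from the fit with groups alone (black) and with the share of reads outside genes as a covariate (purple), with bars for the SE. In 3xTg-D vs 3xTg-S the black points of 6 genes lie above 0 and all 7 purple points lie below 0.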

How the data were processed

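RNA from whole hippocampi was made into libraries with an mRNA kit and sequenced from 1 end. The authors trimmed reads with Trimmomatic 0.35, aligned them with STAR 2.5.1b to GRCm38 and deposited raw counts per gene on Gencode M23, with 4 summary lines of which 1 counts reads outside genes. The strand setting and any use of molecular identifiers for removing duplicates are not given in the sources used here.

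In R 4.3.3, edgeR 4.0.16 (filterByExpr, minimum count 10, minimum total 15, TMM) compared pairs of groups by its quasi-likelihood test (two-sided), with calls at an unadjusted p of 0.01 or less, and fitted the interaction and the slope on the share (centred, with groups; adjusted p of 0.05 or less) to all 16 mice. The share is the count of reads assigned to no gene, with reads in introns included, in percent of uniquely mapped reads. Correlations used log2 CPM (prior count 2) and 100000 resamples. Exon lengths came from Gencode M21 and covered 16466 of 16475 genes. Alternatives were DESeq2 1.42.0, other scalings, filters, thresholds and covariates, the replicate block and each mouse left out. The edgeR fits of groups, interaction, slope and block and the permutation tests were tested on simulated data, and DESeq2 on simulated counts without changes. Depth was 15413385 to 23590149 reads on genes. Replicates are mice according to the study, and the labels do not say more. The main fits did not use the numbers 1 to 4 in the titles, and the replicate block was an alternative. The log2 levels of same-numbered mice, centred within groups, were correlated across genes. Their r was 0.114 or more in each pair of WT-D and WT-S, with a mean of 0.217. The mean was 0.213 in 3xTg-D vs 3xTg-S, 0.241 in WT-S vs 3xTg-S, 0.176 in WT-D vs 3xTg-S and 0.041 in WT-D vs 3xTg-D. Mice of different numbers had means between -0.084 and -0.010.

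The 7 genes and the gene lists were chosen with earlier results of these data known. Named genes were the 7, the 3 most correlated genes of each, the tested genes from Dlk1 to Dio3, 2 tested neighbours on each side and up to 4 genes of highest mean CPM per list. An allele of the 3xTg strain and 1 neighbouring gene that this rule names are not reported here.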

Additional observations from a re-analysis of the deposited data

How the results depend on the processing

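As reported, none of the 7 lncRNAs passed in a group comparison, 7 passed in the slope and 6 in the correlation with the share. Other scaling moved none of these counts. Other filters, DESeq2 and the other threshold moved none in the group comparisons and the slope, and 1 fit of all 16 mice moved none in the group comparisons. The count in the correlation was also 6 with another prior count and after leaving out the 2 mice whose share lay farthest from the median. With the share as a covariate 1 lncRNA passed in 3xTg-D vs 3xTg-S. With the replicate block 1 passed in 3xTg-D vs 3xTg-S (Mirg, 0.45, adjusted p = 0.0974, where 6.88% of genes passed). In WT-D vs WT-S 1 passed (Neat1), and in the slope 3 (where 0.352% of genes rose). The labels do not say in any comparison that same-numbered mice belong together. With 1 mouse left out, 0 to 1 passed in 3xTg-D vs 3xTg-S, 0 to 2 in WT-D vs WT-S, 0 to 2 in WT-D vs 3xTg-S and 6 to 7 in the slope (Neat1 did not pass without 3xTg-S replicate 2). The difference in the share ranged from 0.594 to 3.04 percentage points in 3xTg-D vs 3xTg-S and from -0.495 (without 3xTg-S replicate 4) to 1.95 in WT-D vs 3xTg-S.

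Directions turned in fitted values that did not pass. With the share as a covariate the log2 values were 0.11 for Meg3, 0.26 for Miat and 0.27 for Snhg11 in WT-D vs 3xTg-D. In 3xTg-D vs 3xTg-S they were -0.27 for Meg3, -0.046 for Rian, -0.33 for Mirg, -0.30 for Malat1, -0.30 for Miat and -0.21 for Snhg11. In WT-D vs WT-S they were 0.016 for Rian, 0.0038 for Miat and 0.044 for Snhg11. In WT-S vs 3xTg-S they were -0.086 for Meg3, -0.11 for Rian, -0.21 for Mirg, -0.18 for Malat1, -0.083 for Miat and -0.050 for Snhg11. In WT-D vs 3xTg-S they were -0.21 for Meg3, -0.081 for Rian, -0.34 for Mirg, -0.34 for Malat1, -0.097 for Miat and -0.014 for Snhg11. In the interaction they were -0.15 for Meg3, -0.067 for Rian, -0.086 for Mirg, -0.14 for Malat1, -0.11 for Neat1, -0.30 for Miat and -0.26 for Snhg11. The replicate block gave -0.018 for Rian, -0.092 for Mirg and -0.14 for Malat1 in WT-D vs 3xTg-S.

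With 1 mouse left out, the values in WT-D vs 3xTg-D ranged from -0.35 to 0.068 for Miat and -0.34 to 0.070 for Snhg11. In WT-D vs WT-S they ranged from -0.70 to 0.032 for Miat, -0.11 to 0.066 for Rian and -0.57 to 0.068 for Snhg11. In WT-S vs 3xTg-S they ranged from -0.13 to 0.17 for Neat1 and -0.052 to 0.22 for Rian. In WT-D vs 3xTg-S they ranged from -0.22 to 0.38 for Malat1, -0.0080 to 0.69 for Meg3, -0.12 to 0.43 for Mirg and -0.074 to 0.17 for Rian. The cause of these changes was not tested. Mirg had the lowest depth, at 2.91 CPM in its lowest mouse.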
